A study of Mus musculus with 6 samples.

Results

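The genes described here are the chains of the collagens and the enzymes that modify, trim or crosslink them, measured in the mouse ovarian cancer cell line ID8 and in ID8-M, a line recovered from ascites of mice that carried ID8. Members were taken by symbol from the platform annotation. They are all genes named Col, number, a, number, except Col17a1, together with the prolyl 4-hydroxylase subunits P4ha1 to P4ha3, the lysyl hydroxylases Plod1 to Plod3, the C-proteinase enhancers Pcolce and Pcolce2, and the lysyl oxidases Lox and Loxl1 to Loxl4. This gave 52 genes of 19057 on the array, 40 collagen chains and 12 enzymes, read by 110 probes, and Loxl2 is not analysed here. The parental group was 3 samples of ID8, which the labels call an ovarian epithelial papillary serous adenocarcinoma line of a female C57BL/6 mouse. The other group was 3 samples of ID8-M, which goes back to parental ID8 cells placed in the peritoneal cavity of female C57BL/6 mice aged 8 weeks and collected with the ascites 12 weeks later. Those cells were plated, clones were picked and the culture was passaged several times, and the labels do not give the number of mice or clones behind the line. Both lines carry no added gene or treatment in the labels, and both grew in the same high-glucose medium with 4% serum, antibiotics, insulin, transferrin and selenite before total RNA was taken.

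Collagens are triple helices of chains wound around each other, and the type is set by which chains join. Fibrillar collagens give tissue its tensile strength, type IV forms the network of basement membranes, and type VI forms beaded filaments at the border between cells and matrix. Inside the cell, prolyl 4-hydroxylases make the hydroxyproline that keeps the helix stable at body temperature, and lysyl hydroxylases prepare lysines for sugars and crosslinks. Outside the cell, proteases aided by the C-proteinase enhancers cut off the propeptides, and lysyl oxidases oxidise lysines so that fibres become crosslinked and stiff. In ovarian cancer these genes are studied because tumour cells that spread in the peritoneum attach to and remodel collagen-rich surfaces.

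The 6 samples shared 1 bead chip, where parental ID8 took positions A to C and ID8-M took D to F, so position and cell line cannot be told apart. Between 16386 and 17186 probes were detected per array (detection p under 0.05), and the correlation between arrays over the tested probes was 0.993 to 0.995 within a line and 0.967 to 0.970 between the lines. Nothing in the labels says that the 3 samples of a line came from separate cultures, so the p-values measure the spread between these samples, which may be technical. Of 5 epithelial markers, the keratins Krt7, Krt8, Krt18 and Krt19 were detected on all 6 arrays and were called higher in ID8-M, whereas Epcam was not detected on any. Krt7, Krt8 and Krt18 rose by 2.13, 0.68 and 0.70 on the log2 scale. They lie on chromosome 15, whose 380 tested genes had a median rise of 0.36. Krt19, on chromosome 11, rose by 0.50. Of 3 mesothelial markers analysed, Upk3b and Lrrn4 were called higher and Msln was not called. Lrrn4 lay close to the detection limit, with a mean of 4.79 in parental ID8 and 5.86 in ID8-M. It was detected on 0 parental and all 3 ID8-M arrays, and could be tested only for that reason. Of 7 fibroblast markers, 6 (Pdgfra, Pdgfrb, Thy1, Lum, Dpt and Fap) were not detected on any array. The remaining one, Dcn, was called higher in ID8-M, and the summed linear level of that list ran from 4507 to 4900 on the parental and from 7020 to 7276 on the ID8-M arrays. Of 6 leukocyte markers analysed, Ptprc, Csf1r, Adgre1, Lyz2 and Cd52 were not detected on any array, and Cd14 was called lower, with a summed level of 579 to 644 in parental ID8 and 465 to 510 in ID8-M. Among 3 endothelial markers Cdh5 was not detected on any array, Tek was detected on 1, and Pecam1 was called higher. Pecam1 was detected on 0 parental and all 3 ID8-M arrays, so it could be tested only through its detection in ID8-M. The summed level of that list was 91.9 to 98.0 in parental ID8 and 124 to 138 in ID8-M. No probe in this sum was detected on a parental array.

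Many collagen chains could not be compared between the lines. Of the 40 chains, 19 were not detected on any of the 6 arrays by any of their probes, and 13 had a probe that passed the filter for testing, which asks for detection on all 3 arrays of at least 1 line. Col1a2, the second chain of type I collagen, Col3a1, the chain of type III, and Col6a2, the partner of Col6a1 in type VI, were among those not detected. The scanner intensity of the Col1a2 probe lay between 136 and 164 on the 6 arrays, and those of the Col3a1 and Col6a2 probes between 116 and 150, where the array medians over all probes were 139 to 148. The other chains with detection on 0 arrays were Col4a3, Col4a4, Col6a4, Col6a5, Col6a6, Col8a1, Col8a2, Col9a1, Col9a3, Col10a1, Col13a1, Col19a1, Col22a1, Col23a1, Col24a1 and Col28a1. A further 8 chains were seen on too few arrays to be tested. Col2a1, Col5a2, Col5a3, Col9a2 and Col15a1 were detected on 1 array, Col14a1 on 2, Col7a1 on 3 and Col27a1 on 4. Of the 12 enzymes, 10 were tested, and Loxl3 and P4ha3 were not detected on any array. An undetected probe shows only that its signal was within the range of the negative controls, and several members had 1 probe that was detected and another that was not, among them Loxl1, Col6a1, Col4a6, Col18a1, Plod2 and P4ha2.

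**Figure D1:**
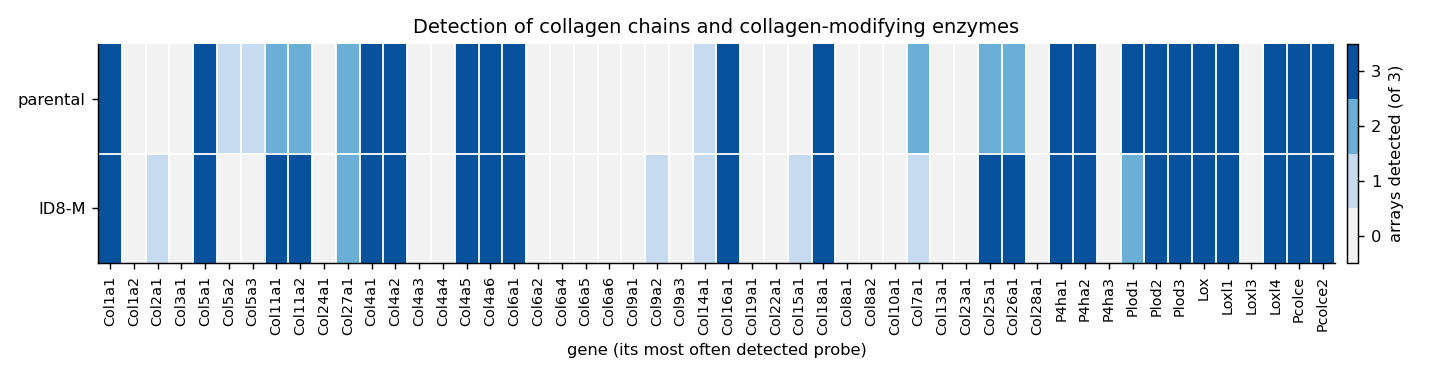
Number of arrays (0 to 3) in each line on which a gene's most often detected probe had a detection p under 0.05, for the 52 members in the order collagen chains, then enzymes. Dark columns mark genes detected on all 3 arrays of a line; 19 of the 40 collagen chains and 2 of the 12 enzymes are blank in both lines.

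Of the 23 tested members, 3 were called higher and 7 lower in ID8-M (limma, Benjamini-Hochberg adjusted p under 0.05 over all tested probes). The calls came to 43.5% of the tested members, beside 30.8% of the 8933 tested genes. The higher members made up 13% of those tested, beside 15.4% of all tested genes, and the lower members 30.4%, beside 15.3%. The members had a median log2 difference of −0.19, where all tested genes had a median of −0.03. Among the 13 tested collagen chains 1 was higher (Col6a1) and 4 were lower (Col4a1, Col4a5, Col4a6 and Col5a1), with a median of −0.10. This median includes Col11a1, Col11a2, Col25a1 and Col26a1, which lay close to the detection limit and passed the filter only through ID8-M. Their differences were all above 0, from 0.03 to 0.54. Among the 10 tested enzymes 2 were higher (P4ha2 and Pcolce2) and 3 were lower (Lox, Loxl1 and Loxl4), with a median of −0.22. All 3 tested lysyl oxidases and 3 of the 4 tested type IV chains were lower, and none of the 3 tested lysyl hydroxylases was called in either direction. Differences are given as ID8-M minus parental on the log2 scale with the standard error of the fit, and levels as background-corrected, quantile-normalised log2 intensity, n = 3 per line. Intensities of different probes are not compared, since each probe has its own brightness. In RNA from a whole culture, less RNA per cell and fewer cells with the transcript cannot be told apart.

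**Figure D2:**
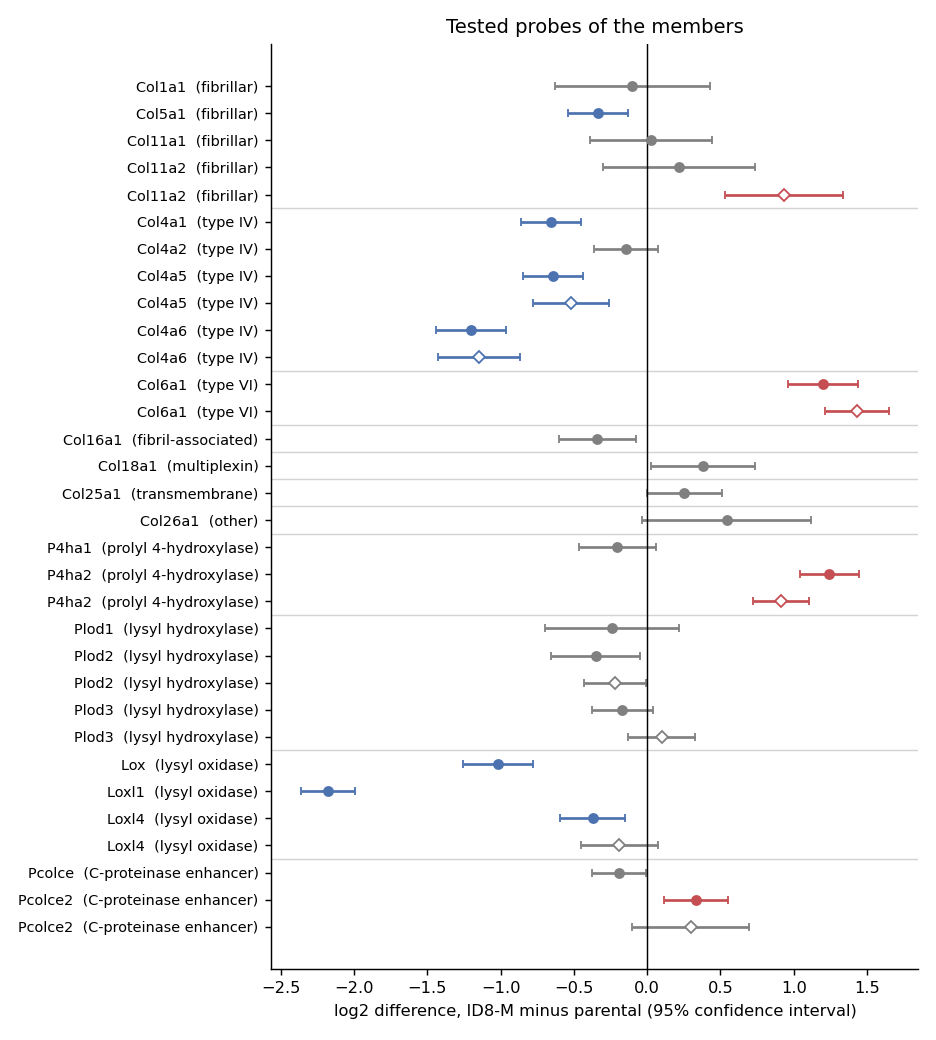
Log2 difference between ID8-M and parental ID8 with its 95% confidence interval for the 32 tested probes of the 23 tested members, grouped by role. Filled circles are the brightest probe of each gene and open diamonds its other probes; red is called higher, blue called lower and grey not called. Loxl1 lies farthest to the left at −2.18, and Col6a1 and P4ha2 lie to the right at 1.20 and 1.24.

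Lysyl oxidases start collagen and elastin crosslinking, and the members tested were all lower in ID8-M. Loxl1, which acts above all on elastic fibres, read 11.12, 11.22 and 11.10 on the parental arrays and 8.95, 8.93 and 9.03 on the ID8-M arrays. The groups lay far apart, with SDs of 0.07 and 0.06 within the lines. Loxl1 fell by 2.18 ± 0.08, which is 4.52-fold lower (limma adjusted p = 7.11e-07), and its second probe was not detected on any array. Lox, the founding member of the family and the main enzyme of collagen crosslinking, read 8.71, 8.70 and 8.42 in parental ID8 and 7.62, 7.49 and 7.67 in ID8-M. Again no ID8-M array reached the lowest parental one. Lox fell by 1.02 ± 0.11, or 2.02-fold (limma adjusted p = 0.000234). Loxl4, a family member with scavenger receptor domains, read 7.77, 8.01 and 7.96 against 7.63, 7.45 and 7.56 by its brightest probe. These groups were separate by a narrow gap. Loxl4 fell by 0.37 ± 0.10 (limma adjusted p = 0.022), but the call was lost without parental 2, parental 3, ID8-M 2 or ID8-M 3, with adjusted p up to 0.0794. Its other tested probe read 6.80, 6.71 and 6.75 against 6.63, 6.32 and 6.73 and was not called (−0.19 ± 0.12, limma adjusted p = 0.254). Without background correction the difference of the brightest Loxl4 probe was −0.24.

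Type IV collagen chains were lower for 3 of 4 genes tested. They are encoded in pairs that lie head to head on a chromosome, and in tissues the protomers are built from alpha 1 with alpha 2 chains, or from alpha 5 with alpha 6 chains, while the third pair, Col4a3 and Col4a4, was not detected here. Col4a6 showed the larger difference of the X-linked pair, at 7.60, 7.86 and 7.75 in parental ID8 and 6.40, 6.64 and 6.57 in ID8-M. Its lines were well separated. Col4a6 fell by 1.20 ± 0.10, or 2.30-fold (limma adjusted p = 8.11e-05), and its second tested probe fell by 1.15 ± 0.12 (limma adjusted p = 0.000276). Without background correction the first probe's difference was −0.65, still called. Col4a5, its neighbour, read 10.61, 10.76 and 10.53 against 10.01, 9.93 and 10.02. No array of ID8-M reached the parental range. Col4a5 fell by 0.64 ± 0.09, or 1.56-fold (limma adjusted p = 0.00123), and its second probe fell by 0.52 ± 0.11 (limma adjusted p = 0.0109).

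Col4a1, which supplies most of the network of basement membranes, read 11.30, 11.42 and 11.41 on the parental arrays and 10.84, 10.63 and 10.68 on the ID8-M arrays. All ID8-M values lay below all parental values. Col4a1 fell by 0.66 ± 0.09, or 1.58-fold (limma adjusted p = 0.00118). Col4a2, its partner in the same protomer, read 10.78, 11.01 and 10.95 against 10.67, 10.78 and 10.86. The lines overlapped, since ID8-M 3 lay above parental 1. The difference of −0.15 ± 0.10 was not called (95% confidence interval −0.36 to 0.07, limma adjusted p = 0.29). The chromosome that holds Col4a1 and Col4a2 was itself shifted: the 491 tested genes of chromosome 8 had a median log2 difference of −0.31, and the 272 tested genes of the X chromosome, which holds Col4a5 and Col4a6, had −0.29. With each chromosome's median removed, the difference was −0.35 for Col4a1 (limma adjusted p = 0.0262), −0.36 for Col4a5 (0.0227) and −0.92 for Col4a6 (0.00043), and all 3 stayed called. The Col4a2 difference of −0.15 was smaller than its chromosome's median shift of −0.31, so it lies above 0 with that median removed. The part of the chromosome-wide shift in these differences was not tested further.

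The start regions of these pairs differ in layout in the RefSeq promoter table (GRCm38.p6). The listed starts of Col4a1 and Col4a2 lie 21 bases apart on opposite strands and the 5′ ends of their transcripts overlap, so that sequence is not printed, while those of Col4a5 and Col4a6 lie 1343 bases apart and do not overlap. The 250 bases before each listed start of the X-linked pair are shown because these genes were lower together. In each printed stretch, capitals mark any match, on either strand, to ACGTG and to GCGTG (both are cores of hypoxia response elements), to GGGCGG (the GC box), to CCAAT and to TATAAA. Col4a5 lies at chrX:141475169-141475418 on the plus strand, and Col4a6 at chrX:141474077-141474326 on the minus strand.
Col4a5: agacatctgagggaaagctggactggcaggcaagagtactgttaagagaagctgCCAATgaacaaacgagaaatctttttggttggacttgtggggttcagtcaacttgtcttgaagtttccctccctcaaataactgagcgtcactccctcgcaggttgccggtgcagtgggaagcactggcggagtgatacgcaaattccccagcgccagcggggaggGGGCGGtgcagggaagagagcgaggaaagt
Col4a6: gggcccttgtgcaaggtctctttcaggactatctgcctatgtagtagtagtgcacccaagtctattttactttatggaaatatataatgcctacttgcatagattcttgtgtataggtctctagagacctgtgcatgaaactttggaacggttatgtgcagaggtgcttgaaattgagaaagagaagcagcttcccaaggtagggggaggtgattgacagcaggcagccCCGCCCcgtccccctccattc
Each stretch held 1 GC box, close to the listed start, and Col4a5 also held 1 CCAAT. Over all 32851 windows of this length in the table, 32.7% held a GC box and 33.8% a CCAAT, and a match describes letters only.

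Type VI collagen was represented by a single detected chain, which was higher in ID8-M. Col6a1, the alpha 1 chain that the type VI trimer requires, read 8.54, 8.22 and 8.28 on the parental arrays and 9.61, 9.56 and 9.47 on the ID8-M arrays. The gap between the lines was several times the spread within them. Col6a1 rose by 1.20 ± 0.10, or 2.30-fold (limma adjusted p = 8.48e-05). Its second tested probe read 7.82, 7.94 and 8.03 against 9.47, 9.34 and 9.27, a rise of 1.43 ± 0.09 (limma adjusted p = 1.71e-05), and a further probe was not detected on any array. The Col6a2 probes read 4.53 to 5.19 in all samples, below the mean of 5.40 for the lowest detected signals per array, and Col6a4, Col6a5 and Col6a6, whose products can take the place of the alpha 3 chain, were not detected either. Col6a3 is not analysed here. The 250 bases before the listed start of Col6a1 (chr10:76726045-76726294, minus strand, GRCm38.p6) are shown because it was the only collagen chain called higher, and they held none of the 5 motifs.
Col6a1: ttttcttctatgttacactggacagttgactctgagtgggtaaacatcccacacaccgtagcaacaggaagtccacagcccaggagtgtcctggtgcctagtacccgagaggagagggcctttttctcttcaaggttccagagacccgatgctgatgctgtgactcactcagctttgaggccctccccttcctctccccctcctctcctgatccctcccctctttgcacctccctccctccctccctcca

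Of the 11 fibrillar chains, 4 were tested, and 1 of them was called. Col5a1, a chain of type V collagen that sets the diameter of type I fibrils, read 7.80, 7.77 and 7.91 in parental ID8 and 7.43, 7.61 and 7.43 in ID8-M. The groups did not overlap, with ID8-M 2 closest to the parental arrays. Col5a1 fell by 0.33 ± 0.09 (limma adjusted p = 0.024), and the call was lost without parental 1, parental 3, ID8-M 1 or ID8-M 3, with adjusted p up to 0.0753. Without background correction the difference was −0.21, still called. Col1a1, the main chain of type I collagen, read 5.88, 6.77 and 6.72 against 6.52, 6.12 and 6.44. The lines overlapped fully, and the difference of −0.10 ± 0.23 was not called (95% confidence interval −0.63 to 0.43, limma adjusted p = 0.776). Col11a1, a chain of type XI collagen, read 4.98 to 5.79 in parental ID8 and 5.39 to 5.47 in ID8-M, a difference of 0.03 ± 0.18 that was not called (limma adjusted p = 0.926). This probe lay close to the detection limit in both lines and was detected on 2 of 3 parental arrays, and the other Col11a1 probes were not detected on any array.

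Col11a2, another type XI chain, gave different answers by probe. The brighter probe read 6.14, 5.71 and 5.15 against 5.80, 5.77 and 6.09 and was not called (0.22 ± 0.22, limma adjusted p = 0.507). The dimmer probe read 4.99, 4.99 and 5.35 against 5.79, 6.43 and 5.91, with no overlap between the lines. It was called higher (0.93 ± 0.18, limma adjusted p = 0.00558), but it was detected on 1 parental array only, with a parental mean of 5.11 that lay below the mean lowest detected signal. With all tested probes of a gene averaged, Col11a2 was called higher (0.57, limma adjusted p = 0.00458). Both probes passed the filter only through ID8-M, the brighter one with detection on 2 of 3 parental arrays. Their shared direction and the averaged call are therefore no support for a rise, and the call rests on the choice of probe.

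The remaining tested chains were not called. Col16a1, a fibril-associated collagen, read 10.28, 10.13 and 9.92 in parental ID8 and 9.88, 9.80 and 9.63 in ID8-M. Its lines did not overlap, the difference was −0.34 ± 0.12 (limma adjusted p = 0.059), and it was called lower under 7 of the 15 other settings, among them the authors' normalised table (−0.30, limma adjusted p = 0.0101). Col18a1, the basement membrane collagen whose cleavage releases endostatin, read 5.57, 5.97 and 6.00 against 6.01, 6.19 and 6.48. The lines were separate by a very small gap, and the difference of 0.38 ± 0.15 was not called (limma adjusted p = 0.102). Col25a1, a transmembrane collagen, differed by 0.25 ± 0.11 (limma adjusted p = 0.127), and Col26a1 by 0.54 ± 0.25 (limma adjusted p = 0.144), both close to the detection limit and both detected on 2 of 3 parental arrays.

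**Figure D3:**
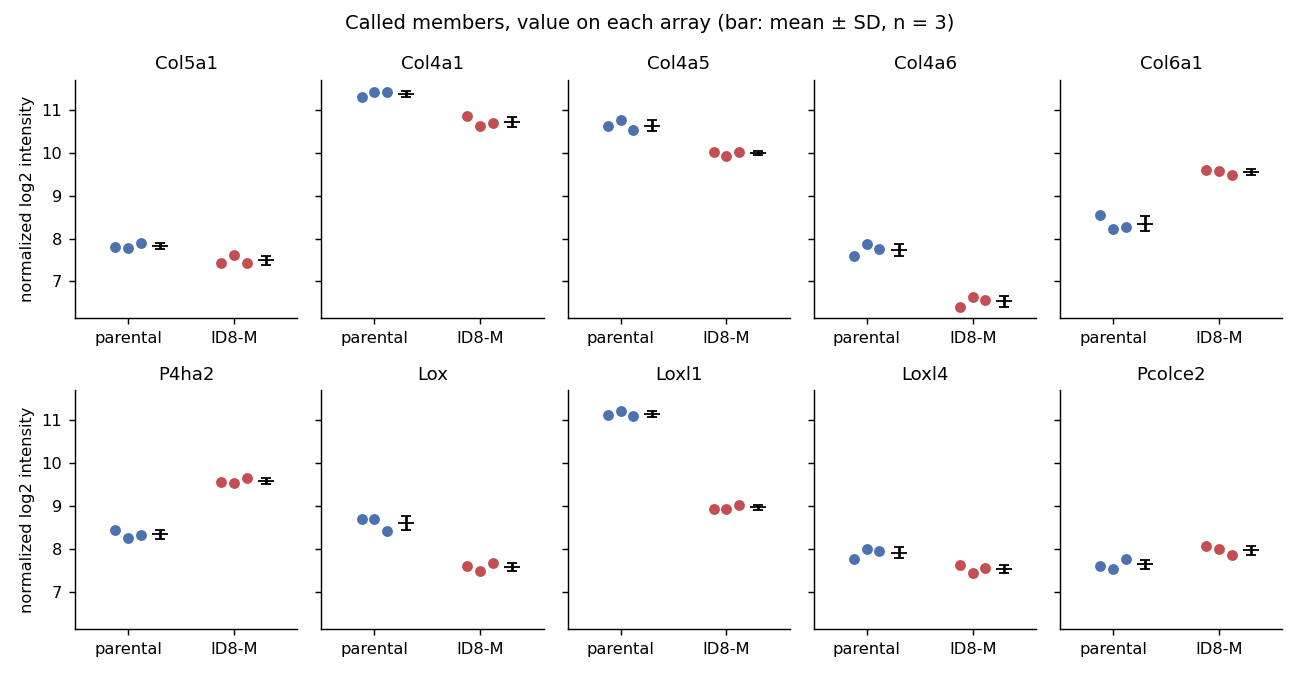
Normalised log2 intensity on each array for the brightest probe of the 10 called members, parental ID8 in blue and ID8-M in red, with the mean ± SD (n = 3) in black. The y axis does not start at 0. For each gene the 3 ID8-M values lie wholly above or below the 3 parental values. The genes were chosen by their call, so this separation is not further evidence. Some tested members that were not called, such as Col16a1, were separate too. The share of all tested genes that separate in this way was not computed. The widest gap is that of Loxl1, at 11.10 to 11.22 against 8.93 to 9.03.

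The prolyl 4-hydroxylase subunits did not move together. P4ha2, the alpha subunit found mainly in chondrocytes and osteoblasts, read 8.46, 8.25 and 8.34 in parental ID8 and 9.57, 9.54 and 9.66 in ID8-M. Every ID8-M array was above every parental array. P4ha2 rose by 1.24 ± 0.09, or 2.37-fold (limma adjusted p = 2.55e-05), and its second probe rose by 0.91 ± 0.08, from 7.21, 7.14 and 7.03 to 8.07, 7.99 and 8.05 (limma adjusted p = 0.000116). P4ha1, the alpha subunit of most cell types, read 6.95, 6.94 and 6.88 against 6.96, 6.65 and 6.54. The lines overlapped and the difference of −0.20 ± 0.11 was not called (95% confidence interval −0.47 to 0.06, limma adjusted p = 0.223), although it was called lower without ID8-M 1 (−0.32, limma adjusted p = 0.048). The beta subunit that they share, P4hb, was not called, with a difference of 0.09 ± 0.08 (limma adjusted p = 0.411).

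The 250 bases before the P4ha2 start (chr11:54100674-54100923, plus strand, GRCm38.p6) are shown because P4ha2 was called while P4ha1 was not. Capitals mark the motifs named above.
P4ha2: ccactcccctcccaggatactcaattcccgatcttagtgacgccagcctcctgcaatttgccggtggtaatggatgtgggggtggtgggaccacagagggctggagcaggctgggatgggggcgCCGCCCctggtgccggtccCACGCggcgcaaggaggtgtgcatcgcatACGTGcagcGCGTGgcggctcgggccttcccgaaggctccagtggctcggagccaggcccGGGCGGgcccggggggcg
This stretch held 1 ACGTG, 2 matches to GCGTG and 2 GC boxes. The same window of P4ha1 held 1 ACGTG, 2 matches to GCGTG and 1 GC box. A role of hypoxia in either gene was not tested. Windows with an ACGTG made up 16.6% of all in the table and windows with a GCGTG 28.2%. Windows were read for 40 of the 52 members. Among these 43 windows, 8 held an ACGTG (18.6%) and 14 a GCGTG (32.6%). A GC box was held by 29 (67.4%, beside 32.7% in the table), a CCAAT by 13 (30.2%, beside 33.8%) and a TATAAA by 5 (11.6%, beside 12.4%).

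No lysyl hydroxylase was called. Plod2, which hydroxylates lysines of the collagen ends where crosslinks form, read 8.89, 8.93 and 8.80 in parental ID8 and 8.82, 8.42 and 8.32 in ID8-M by its brightest probe. ID8-M 1 fell within the parental range and the other ID8-M arrays below it. The difference was −0.35 ± 0.13 (limma adjusted p = 0.0829), and that of the second probe −0.22 ± 0.09 (limma adjusted p = 0.111). Plod2 was called lower under 4 of the 15 other settings, without ID8-M 1 among them (−0.50, limma adjusted p = 0.0115). Plod3, which also adds sugars to hydroxylysine, read 11.58, 11.49 and 11.65 against 11.46, 11.47 and 11.28. The ID8-M values lay just below the parental ones, and the difference of −0.17 ± 0.09 was not called (limma adjusted p = 0.2), nor was that of its other probe (0.10 ± 0.10, limma adjusted p = 0.497). Plod1, which acts on lysines within the helix, read 5.87, 6.27 and 5.68 against 5.97, 5.82 and 5.32. The lines overlapped, and the difference of −0.24 ± 0.20 was not called (limma adjusted p = 0.398). The only Plod1 probe lay close to the detection limit. It was detected on 2 of 3 ID8-M arrays and passed the filter only through parental ID8.

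Of the C-proteinase enhancers, Pcolce2 was called higher by 1 of 2 probes. The brighter probe read 7.61, 7.55 and 7.77 in parental ID8 and 8.07, 8.00 and 7.87 in ID8-M, and the lines were separate by a narrow gap. Pcolce2 rose by 0.33 ± 0.10 (limma adjusted p = 0.0335), a call lost without parental 1, parental 2, ID8-M 1 or ID8-M 2, with adjusted p up to 0.0987. The other probe read 7.40, 7.07 and 7.81 against 7.77, 7.81 and 7.59 and was not called (0.30 ± 0.17, limma adjusted p = 0.236). With the probes averaged the call was lost too (0.32, limma adjusted p = 0.0821), and without background correction the difference of the brighter probe was 0.22. Pcolce, the more widely expressed of the pair, read 11.19, 11.24 and 11.25 against 11.02, 10.97 and 11.11. The lines did not overlap, but the difference of −0.19 ± 0.08 was not called (limma adjusted p = 0.109).

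Related members were also set against each other, as the shift of their log2 ratio within each array between the lines. The ratio of Col4a1 to Col4a2 moved by −0.51, that of Col4a5 to Col4a6 by 0.56, that of P4ha2 to P4ha1 by 1.45, that of Loxl1 to Lox by −1.16 and that of Loxl1 to Loxl4 by −1.81. The Lox to Loxl4 ratio moved by −0.65 and the Pcolce2 to Pcolce ratio by 0.53. In each of these 7 pairs the lines did not overlap, with an exact two-sided permutation p = 0.1, the smallest that 3 against 3 arrays can give (0.143 adjusted over 10 pairs). Each of the 7 holds a gene already called between the lines, and the lysyl oxidase pairs share genes, so the separation is not independent of those calls. How often pairs of other tested genes separate was not computed. The 3 pairs of lysyl hydroxylases moved by 0.11 (Plod1 to Plod2), −0.07 (Plod1 to Plod3) and −0.18 (Plod2 to Plod3), with exact permutation p from 0.3 to 1. These pairs cannot pass 0.05 with 3 arrays per line, and the Plod1 probe lay close to the detection limit.

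Genes that fold, process, bind or degrade collagen changed in both directions as well. Of 42 such genes listed, 39 had a probe and 23 were tested, of which 4 were higher and 9 lower, with a median log2 difference of −0.04. Of all tested genes, 15.4% were higher and 15.3% lower. Among 13 tested genes of folding and export 1 was higher and 5 were lower. Colgalt1, which attaches galactose to hydroxylysine, fell by 0.84 ± 0.09 (limma adjusted p = 0.000247), from 11.26 to 10.42 on average, and by 0.53 with the chromosome's median removed. Sec23a, a coat protein of the vesicles that export procollagen, fell by 0.66 ± 0.09, or by 0.34 without background correction. P3h2 and P3h1, which make 3-hydroxyproline, fell by 0.62 ± 0.13 and 0.50 ± 0.09, and by 0.26 each without background correction. All these falls were called under each of the 15 other settings. Colgalt2 (−0.34 ± 0.10, limma adjusted p = 0.0416) lay close to the detection limit, and its call was lost under 11 of 14 other settings, where its difference was as small as −0.10. P3h4 was called higher (0.27 ± 0.08, limma adjusted p = 0.0429), but leaving out any single array ended its call. Ppib, Crtap, Mia3, Sec24d and P4hb were not called. For 2 genes the probes differed in their call: the collagen chaperone Serpinh1 was not called by its brightest probe (−0.09 ± 0.07) but was called lower by its other tested probe (−0.31 ± 0.09, limma adjusted p = 0.0383). Tmem38b, an ion channel of the endoplasmic reticulum, was likewise not called by its brightest probe (0.13 ± 0.11) but was called higher by the other (0.26 ± 0.08, limma adjusted p = 0.0377).

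In all, 3 of the processing genes were tested. Bmp1, the C-proteinase that cuts procollagen and also activates Lox, fell by 0.66 ± 0.09 (limma adjusted p = 0.00119), and its 2 other tested probes were lower as well. Fkbp14, a prolyl isomerase of the endoplasmic reticulum, rose by 0.45 ± 0.12 (limma adjusted p = 0.0233), a call lost without parental 1, parental 2, ID8-M 1 or ID8-M 2, and the difference was 0.28 without background correction. The matrix glycoprotein Sparc was not called (0.16 ± 0.08). Of 3 tested receptors, Itga11, the alpha subunit that pairs with Itgb1 to bind fibrillar collagen, rose by 2.76 ± 0.09 (limma adjusted p = 3.71e-07), from a mean of 6.83 to 9.59. Its partner Itgb1 fell by 0.75 ± 0.12 (limma adjusted p = 0.00273), and by 0.45 with the chromosome's median removed. Ddr1 was not called (0.20 ± 0.13), and Itga1, Itga2, Ddr2, Lair1 and Gp6 were not detected on any array. Of 4 tested turnover genes, the collagenase Mmp13 rose by 0.77 ± 0.09, while the membrane collagenase Mmp14 fell by 0.58 ± 0.09. The gelatinase Mmp2 fell by 0.91 ± 0.15, or 0.36 without background correction. Like Itgb1, Mmp2 lies on chromosome 8, whose median log2 difference was −0.31. Pepd, which frees proline from collagen peptides, was not called (0.33 ± 0.12, limma adjusted p = 0.0724).

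**Figure D4:**
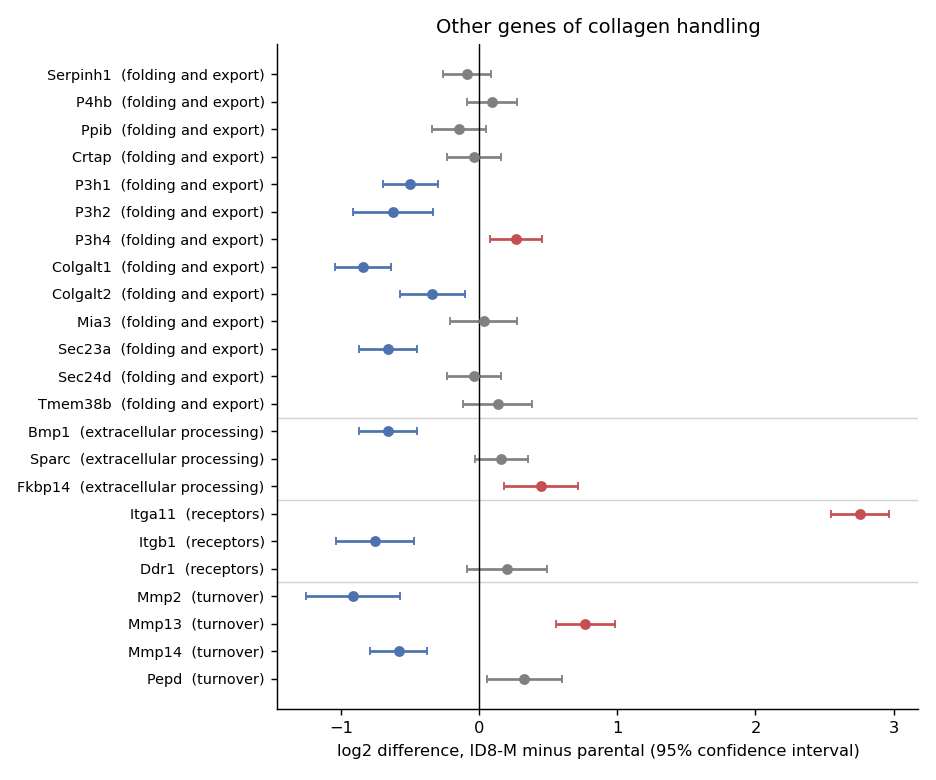
Log2 difference between ID8-M and parental ID8 with its 95% confidence interval for the brightest probe of the 23 tested genes of collagen folding, processing, binding and turnover that are not members. Red is called higher, blue called lower and grey not called; Itga11 at 2.76 lies apart from the other 22 genes, which fall between −0.91 and 0.77.

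Among the 10 called members, 7 kept their call and direction under each of 15 other settings: Loxl1, Lox, Col4a1, Col4a5, Col4a6, Col6a1 and P4ha2. Loxl1 stayed between −2.21 and −1.94, Lox between −1.11 and −0.71, Col6a1 between 0.96 and 1.32 and P4ha2 between 1.00 and 1.29. Col5a1, Loxl4 and Pcolce2 kept their direction but lost their call under 5, 5 and 7 of those settings.

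**Figure D5:**
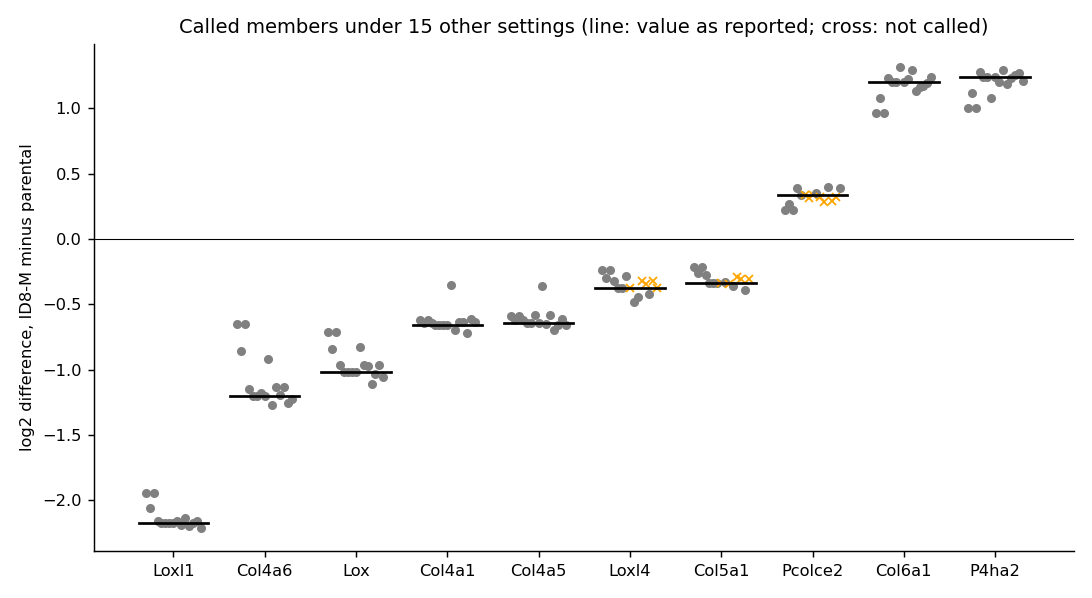
Log2 difference between ID8-M and parental ID8 of the 10 called members under 15 other settings of background correction, normalisation, filter, probe summary, blocking and left-out arrays. The black line is the value reported above, a grey point a setting that kept the call and an orange cross one that lost it; crosses appear for Loxl4, Col5a1 and Pcolce2.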

How the data were processed

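Total RNA of 3 parental ID8 and 3 ID8-M samples was hybridised to 1 Illumina bead chip, per the labels. The deposited scanner table gives, per the file headers, each probe's mean bead intensity, bead number, standard error over beads and detection p-value on each array, and its values are neither background subtracted nor normalised. The authors' second deposited table holds normalised intensity on the linear scale and was used as an alternative. The sources used here name no scanner software, and the number of arrays limits the precision.

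Intensities of all 45281 probes were background corrected from the detection p-values, quantile normalised and put on the log2 scale with neqc (limma 3.58.1, R 4.3.3, offset 16). A probe was tested if each of the 3 arrays of 1 line, or of both, had it detected (p under 0.05), which gave 16221 probes and 8933 genes, fitted with lmFit and eBayes (two-sided) and adjusted by Benjamini-Hochberg over all tested probes; a gene is read by its brightest tested probe. Of the probes, 34885 carry 1 symbol, 18 several and 10378 none, and 34807 matched a RefSeq gene of GRCm38.p6. The fit was tested on simulated data. Same-numbered samples of the lines did not deviate together (correlations of 0.04, −0.09 and 0.01), so replicate numbers were not used as pairs. Members, gene lists (4 of collagen handling, 5 of cell type markers) and alternatives were chosen with earlier results of these data known. Every member is named; array values are given for called members and for Col1a1, Col4a2, Col18a1, P4ha1, Plod1 to Plod3 and Pcolce, and those of Col16a1 and Col11a2 were added after their values were seen. Of the members' tested probes, bead numbers ran from 16 to 68 per array.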

Additional observations from a re-analysis of the deposited data

How the results depend on the processing

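Of the 10 called members and 13 called genes of collagen folding, processing, binding and turnover, 17 kept their call under each alternative that could be computed and none changed direction; the exceptions were Col5a1, Loxl4, Pcolce2, Colgalt2, Fkbp14 and P3h4. Among all tested genes, 907 were called lower with each chromosome's median removed, against 1370. Higher collagen chains numbered 2 with all probes of a gene averaged (Col11a2 added) and 2 with the replicate block (Col18a1 added), against 1. Higher enzymes numbered 1 without a detection filter, with averaged probes and with the replicate block, against 2, and 1 to 2 with 1 array left out. Lower enzymes numbered 5 without background correction and in the authors' table (Pcolce and Plod2 added), against 3, and between 2 and 5 with 1 array left out. Of the other pathway genes, 2 were called higher without a detection filter and with the replicate block, against 4, and 2 to 3 with 1 array left out. The block on replicate number changed no other count by over 1.5 times. With that replicate block, Col5a1 (limma adjusted p = 0.0558), Loxl4 (0.0535), Pcolce2 (0.0719), Fkbp14 (0.053) and P3h4 (0.0744) were not called. Marker genes were not run under the alternatives. Probes within the range of the negative controls could not be tested at this signal.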
